A study of Homo sapiens with 58 samples.

Results

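Gene deserts are long stretches of the genome without protein-coding genes, and many of them lie beside developmental regulators whose distal enhancers they hold. Regulatory elements (REs) in such stretches can act over very long distances through chromatin looping, and the desert upstream of SOX9 is a well-known case in craniofacial development. The REs described here were the autosomal rows of the deposited ATAC-seq table whose midpoint lay more than 500,000 bp from every protein-coding transcript start site of GENCODE release 44 and outside every protein-coding gene body. A total of 6,353 of 151,457 REs (4.19%) met this rule, on 22 autosomes and in 309 intervals between coding genes. They are called gene desert REs below. The rule used position alone and no accessibility value.

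Accessibility was measured by ATAC-seq, where open chromatin is cut and tagged by the transposase Tn5. The cells were cranial neural crest cells (CNCCs) differentiated from the established human embryonic line H9. In SOX9-tagged cells the endogenous transcription factor SOX9 carries FKBP12-F36V, mNeonGreen and V5 at its C terminus, so that the degrader dTAGV-1 lowers its level. Tagged cells of clones S9CC13 and S9CC47 received 0, 0.5, 1.6, 5, 16 or 500 nM dTAGV-1 for 48 h, with 7 replicates per concentration (4 of S9CC13 and 3 of S9CC47). The labels give the SOX9 level at these concentrations as 100, 77.9, 51.7, 25.8, 8.14 and 0.95% of that at 0 nM, and SOX9 protein was not measured by this assay. Untagged wild-type (WT) cells received 0 or 500 nM for 48 h. A time course of tagged and WT cells had vehicle for 24 h, or 500 nM for 3 h or 24 h. WT and time-course groups held 2 samples each. Within the tagged lines the 0 nM or vehicle samples carry the tag as well, so effects of the tag are shared by the groups compared. The tagged replicates at 48 h come from 6 differentiation batches, and S9CC13_R6 and S9CC47_R6 share batch R6. Because batch was a covariate, p-values measure the spread left after differences in level between batches are removed. All replicates derive from H9 cells, so this is the spread within a single line.

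Totals ran from 22.9 to 81.04 M counts in REs over the 58 samples, and gene desert REs took 1.58 to 2.53% of them. The median gene desert RE held 34 to 131 counts per sample. Promoter REs of 9 CNCC markers, among them TFAP2A, TWIST1 and NR2F1, summed to 480 to 756 CPM (counts scaled to the library total and by TMM) in every sample. Those of 4 pluripotency markers summed to 19.4 to 43.2 CPM, of 4 neural progenitor markers to 51.7 to 104 CPM, of 3 endoderm markers to 11.4 to 32.4 CPM, and of 3 blood markers to 4.98 to 9.35 CPM. NANOG, FOXA2, PTPRC and SPI1, which define pluripotent, endoderm and blood cells, had no promoter RE. Of the 3 melanocyte markers, MLANA and TYR had none either, and the 110 to 175 CPM of that list came from PMEL.

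The gene desert REs lay at a median of 751,061 bp from the nearest coding start site, and 1,686 of them lay over 1,000,000 bp away. By annotation, 4,278 (67.3%) overlapped no gene, 1,914 (30.1%) lay in an intron of a long non-coding RNA (lncRNA) gene and 112 (1.76%) overlapped a lncRNA exon. Within 1,000 bp of a lncRNA start lay 166. They were less accessible and poorer in G and C than the rest. At 0 nM their median was 1.46 CPM (TMM-scaled), with quartiles at 0.951 and 2.98 CPM, against 2.51 CPM for all other REs. Only 362 (5.70%) exceeded 10 CPM, against 17.7% of the other REs. Mean GC content was 41.8 ± 6.03% (SD over REs), against 50.0 ± 9.75%.

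SOX proteins bind DNA in the minor groove at a short core, and a SOX9 dimer can occupy a pair of cores that face each other. Because such pairs were rare and most members that held them lost accessibility quickly, 6 of them are shown with 2 REs that gained the most accessibility. The core was taken as ACAAAG or ACAATG on either strand, and a facing pair as a core on the plus strand followed after 3 to 5 bases by a core on the minus strand. Each line gives 200 bases of the RE on the plus strand of hg38, 5′ to 3′, with all cores in capitals. In the first 6 the window is centered on the facing pair, and in the last 2 on the RE.
AMY1C–PRMT6 (chr1:105100149-105100348): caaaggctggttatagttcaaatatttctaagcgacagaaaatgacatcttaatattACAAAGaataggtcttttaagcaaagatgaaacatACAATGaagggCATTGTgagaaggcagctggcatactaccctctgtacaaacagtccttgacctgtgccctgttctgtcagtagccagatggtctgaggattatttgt
TFAP2B–PKHD1 (chr6:51349963-51350162): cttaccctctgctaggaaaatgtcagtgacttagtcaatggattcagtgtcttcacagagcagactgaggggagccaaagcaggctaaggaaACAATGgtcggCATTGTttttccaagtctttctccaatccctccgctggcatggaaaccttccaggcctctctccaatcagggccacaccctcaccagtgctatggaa
NXPH1–NDUFA4 (chr7:9718151-9718350): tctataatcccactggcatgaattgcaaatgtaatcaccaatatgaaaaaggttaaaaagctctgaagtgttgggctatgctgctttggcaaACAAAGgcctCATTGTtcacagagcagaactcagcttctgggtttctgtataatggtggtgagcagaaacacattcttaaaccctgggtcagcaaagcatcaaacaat
VRK1–BCL11B (chr14:98593490-98593689): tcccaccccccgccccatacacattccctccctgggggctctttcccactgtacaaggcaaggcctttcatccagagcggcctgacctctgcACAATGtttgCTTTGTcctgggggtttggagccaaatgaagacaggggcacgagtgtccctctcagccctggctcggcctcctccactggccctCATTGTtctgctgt
MCTP2–NR2F2 (chr15:95210622-95210821): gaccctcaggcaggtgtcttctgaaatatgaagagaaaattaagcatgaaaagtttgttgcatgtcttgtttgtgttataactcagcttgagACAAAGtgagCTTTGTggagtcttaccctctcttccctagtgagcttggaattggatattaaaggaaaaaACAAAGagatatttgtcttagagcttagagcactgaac
GALR1–SALL3 (chr18:77927605-77927804): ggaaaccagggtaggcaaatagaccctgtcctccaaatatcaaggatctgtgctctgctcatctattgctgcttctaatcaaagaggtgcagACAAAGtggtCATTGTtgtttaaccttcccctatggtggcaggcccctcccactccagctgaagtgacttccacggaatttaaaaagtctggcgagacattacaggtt
C4orf33–PCDH10 (chr4:130602220-130602419): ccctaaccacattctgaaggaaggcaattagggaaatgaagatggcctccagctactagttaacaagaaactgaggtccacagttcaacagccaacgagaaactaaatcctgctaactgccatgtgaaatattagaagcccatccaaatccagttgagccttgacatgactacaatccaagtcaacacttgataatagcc
PABPC4L–PCDH18 (chr4:136425554-136425753): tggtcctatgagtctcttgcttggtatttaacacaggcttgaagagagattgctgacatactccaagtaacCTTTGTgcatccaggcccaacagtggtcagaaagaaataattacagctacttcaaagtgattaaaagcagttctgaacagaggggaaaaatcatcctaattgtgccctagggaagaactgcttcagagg

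The first comparison asked how gene desert REs respond to full SOX9 depletion. At 500 nM for 48 h, 834 gene desert REs (13.1%) were lower and 1,062 (16.7%) were higher than at 0 nM (edgeR quasi-likelihood test, adjusted p under 0.05 over all REs). Over all 151,457 REs 13.9% were lower and 10.2% were higher. Higher calls outnumbered lower ones here, the opposite of the whole table. Without differentiation batch as covariate the numbers were nearly even, at 419 lower and 424 higher, against 10,503 and 4,601 over all REs. Losses were the larger changes: 274 gene desert REs fell by a log2 fold change of 1 or more and 95 rose by as much, with medians of -0.75 over the lower and 0.62 over the higher REs. The same held for the whole table, where 5,873 REs fell and 921 rose by as much and the medians were -0.66 and 0.55. Of the called gene desert REs, 633 were lower and 802 higher in every replicate. The like counts over all called REs are not given here, so these numbers are not set against the whole table. Over all gene desert REs the median log2 change, taken per replicate on the log2(CPM + 0.5) scale, was 0.0665 ± 0.0361 (SD, n = 7), against 0.00457 ± 0.0105 for all other REs, and it exceeded that of the other REs in 7 of 7 replicates.

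The share of higher REs grew with distance from coding start sites. It was 5.63% within 1,000 bp, 9.81% from 10,000 to 50,000 bp, 13.3% from 100,000 to 250,000 bp and 15.0% from 250,000 to 500,000 bp. The share of lower REs was 5.58% within 1,000 bp and stayed between 14.7 and 16.3% in the bins from 1,000 to 500,000 bp. Over the same bins the median accessibility at 0 nM fell from 11.5 to 1.66 CPM and the mean GC content from 61.6 to 43.7%. REs just inside the limit of the rule (500,000 to 550,000 bp, 861 REs) were lower in 16.4% and higher in 17.1%, and those just outside (450,000 to 500,000 bp and outside coding genes, 1,041 REs) in 15.8% and 16.1%. Gene desert REs over 1,000,000 bp away were lower in 11.2% and higher in 15.9%. A further 415 autosomal REs that met the distance limit but lay inside a coding gene body were lower in 10.8% and higher in 15.9%.

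**Figure D1:**
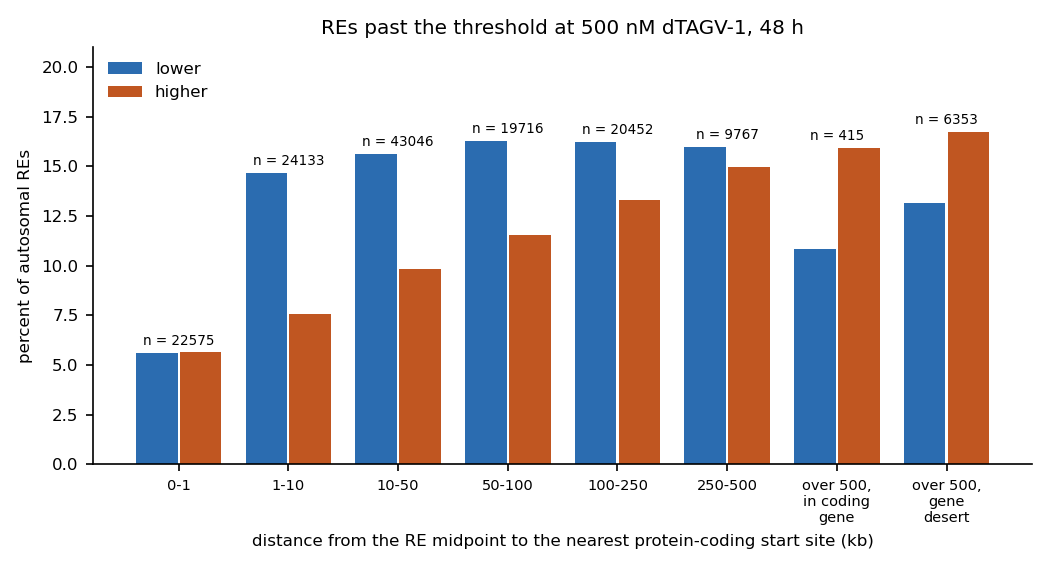
Percent of autosomal REs lower (blue) or higher (orange) at 500 nM than at 0 nM after 48 h, by distance to the nearest protein-coding start site in kb. The orange bars rise from 5.63% in the nearest bin to 16.7% in gene desert REs, and the blue bar of gene desert REs stands at 13.1%. Numbers over the bars are REs per bin.

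Because gene desert REs differ from the rest in base composition and level, both were set beside the calls. Within the range of 35 to 40% GC, which held 2,021 gene desert REs, 19.9% of them and 15.2% of the other REs were higher at 500 nM. From 40 to 45% GC these shares were 17.2 and 14.1%, and from 45 to 50% they were 13.8 and 10.6%. Among the 404 gene desert REs of 50 to 55% GC the order turned, with 6.68 against 6.98%. At low GC higher calls outnumbered lower ones in the other REs as well. They were higher in 15.2% and lower in 12.3% from 35 to 40% GC, and in 13.1 and 8.50% under 35% GC. From 40 to 45% GC the other REs were higher in 14.1% and lower in 14.7%. At matched accessibility of 2 to 5 CPM, 22.4% of gene desert REs and 11.1% of the other REs were higher, and above 10 CPM the shares were 21.4 and 9.58%. In an edgeR fit with offsets for GC content in each sample, 904 gene desert REs were lower and 970 higher at 500 nM (14.2 and 15.3%), against 13.9 and 10.7% of all REs. The higher calls therefore still outnumbered the lower ones, by a smaller margin. The part of base composition in the difference was not tested beyond these values.

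**Figure D2:**
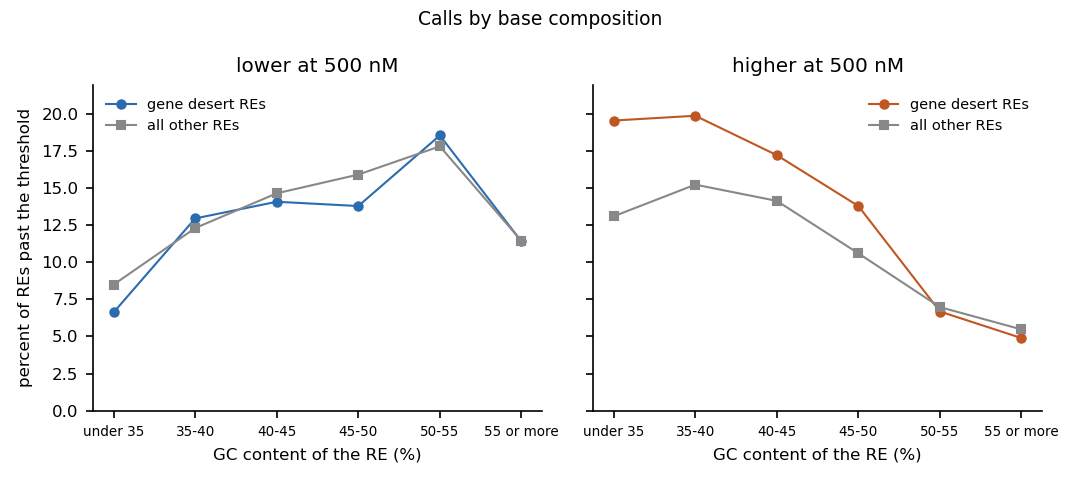
Percent of REs lower (left) or higher (right) at 500 nM after 48 h, by GC content of the RE, for gene desert REs (colored circles) and all other REs (gray squares). On the right, gene desert REs lie above the other REs in the 4 bins under 50% GC, for example 19.9 against 15.2% from 35 to 40% GC.

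Among the lower gene desert REs, the 6 with the lowest log2 fold changes lost most of their accessibility. The RE between AGA and TENM3 (chr4:181202128-181202628), 942,312 bp from the start of the cell adhesion gene TENM3, ranged from 3.22 to 9.95 CPM over the 7 samples at 0 nM with a median of 5.14, and from 0.0901 to 0.471 CPM with a median of 0.221 at 500 nM. The groups did not overlap, and the log2 fold change was -4.51 ± 0.23 (SE, adjusted p = 9.31e-14). The RE between ANKRD7 and KCND2, a potassium channel gene (chr7:119123571-119124071), ranged from 15.6 to 29.2 CPM at 0 nM (median 24.9) and from 1.17 to 2.21 CPM at 500 nM (median 1.58). Its log2 fold change was -3.82 ± 0.15 (adjusted p = 1.28e-15), again without overlap. The same RE in the 2 WT samples per group was at 18.7 and 28.8 CPM (0 nM) and at 24.2 and 32.0 CPM (500 nM).

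The RE between SEL1L and FLRT2, an adhesion and guidance gene (chr14:84042062-84042562, in an intron of a lncRNA gene), fell from a median of 3.48 CPM (0.841 to 4.48) to 0.190 CPM (0.0616 to 0.507). The RE between ZPLD1 and the adhesion gene ALCAM (chr3:104367036-104367536) fell from 6.53 CPM (3.49 to 8.59) to 0.462 CPM (0.253 to 0.978). That between CDH8 and CDH11, both cadherin genes (chr16:63035631-63036131), fell from 2.10 CPM (1.20 to 3.91) to 0.218 CPM (0.0450 to 0.326). In each of these 3 the groups did not overlap. All 7 replicates moved down, which the rule that picked these REs required. The RE between GALR1 and the zinc finger gene SALL3 (chr18:77927432-77927932), which holds a facing pair of cores shown above, fell from 2.89 CPM (2.59 to 5.67) to 0.398 CPM (0.231 to 0.484), which is -3.27 ± 0.22 on the log2 scale (adjusted p = 1.86e-11). Log2 fold changes of the other 3 were -3.73, -3.58 and -3.41 in the order given.

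The 5 most raised gene desert REs started from low levels. The RE between C4orf33 and the protocadherin gene PCDH10 (chr4:130602070-130602570) rose from a median of 1.36 CPM (0.604 to 1.99) at 0 nM to 4.55 CPM (2.16 to 10.4) at 500 nM, without overlap of the groups (log2 fold change 2.21 ± 0.15, adjusted p = 3.53e-11). The RE between PABPC4L and the protocadherin gene PCDH18 (chr4:136425404-136425904) rose from 2.07 CPM (1.51 to 3.59) to 7.72 CPM (3.53 to 17.9), where the lowest sample at 500 nM lay just below the highest at 0 nM (1.91 ± 0.13, adjusted p = 3.26e-11). The third by size lay between DNAJB9 and IMMP2L (chr7:110587740-110588240) and rose from 0.977 to 2.50 CPM (medians, log2 fold change 1.64). REs between EPHA5 and CENPC (chr4:66594516-66595016) and between METTL15 and KCNA4, a potassium channel gene (chr11:29256064-29256564), rose by log2 fold changes of 1.59 and 1.58. The spread at 500 nM was wide in all 5. Each was higher in 7 of 7 replicates, which the rule that picked these REs required. In WT cells at 48 h none of these 5 passed the threshold. Of the 6 lowered REs, 2 passed it there in the opposite direction: AGA–TENM3 was higher, with 7.23 and 8.45 CPM at 0 nM and 10.3 and 10.7 CPM at 500 nM (0.42 ± 0.11, adjusted p = 0.0331), and so was SEL1L–FLRT2, with 2.00 and 4.38 against 3.88 and 5.16 CPM (0.55 ± 0.14, adjusted p = 0.0444).

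**Figure D3:**
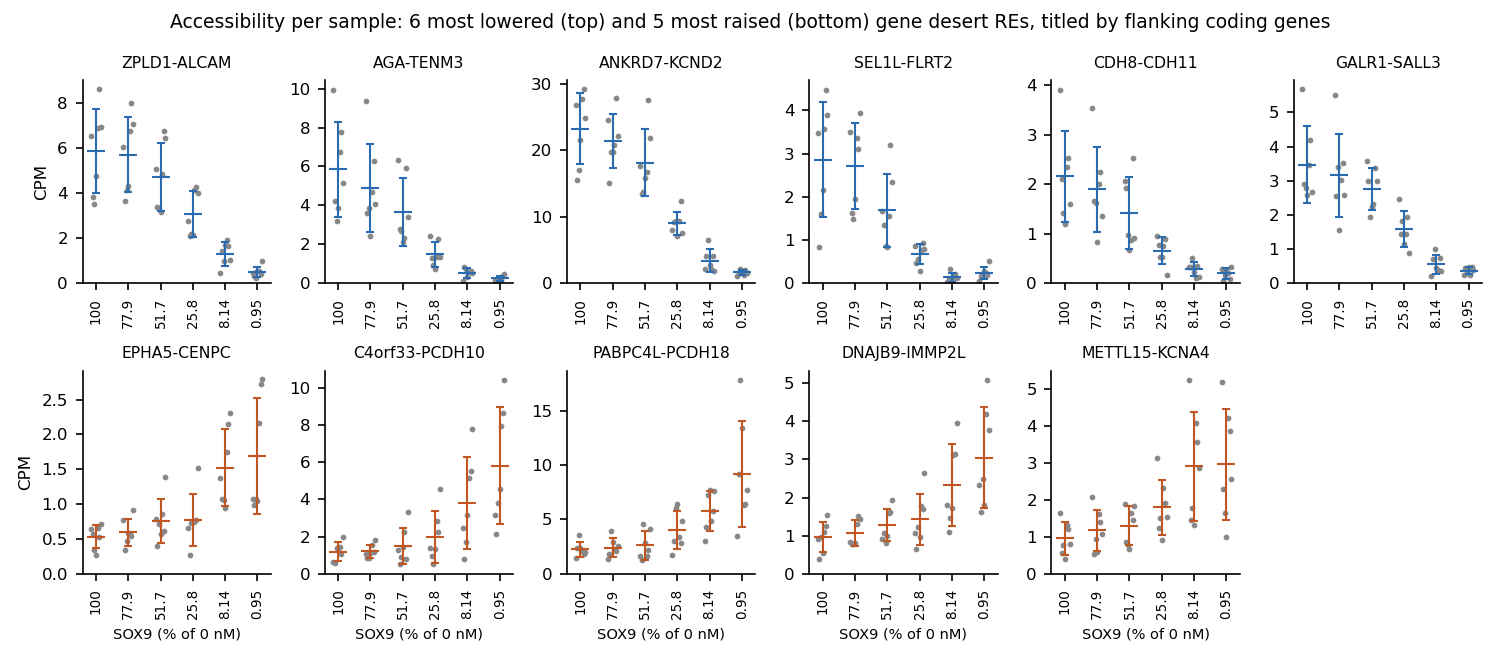
Accessibility in TMM-scaled CPM against SOX9 level in percent of 0 nM, for the 6 most lowered (top row) and 5 most raised (bottom row) gene desert REs, titled by flanking coding genes. Gray points are the 7 replicates, bars the mean ± SD. In the ANKRD7–KCND2 panel the points fall from 15.6 to 29.2 CPM at full SOX9 to 1.17 to 2.21 CPM at 0.95%, and in the C4orf33–PCDH10 panel they rise to 2.16 to 10.4 CPM.

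The dose series asked at which SOX9 level these changes appear. All concentrations were compared with the same 7 samples at 0 nM, so the comparisons are not independent. At 16 nM, 538 gene desert REs were lower (8.47%, against 9.12% of all REs) and 899 were higher (14.2%, against 7.12%). With GC offsets these numbers were 606 and 687, so that higher REs made up 53.1 instead of 62.6% of the calls. With the replicate as block 695 were lower and 1,391 higher. Without differentiation batch as covariate 270 were lower and 144 higher, which reversed the balance. In that fit 6,251 of all REs were lower and 1,466 higher, so losses prevailed in the whole table as well. At 5 nM, 266 were lower (4.19%, against 4.24% of all REs) and 161 were higher (2.53%, against 1.08%). The count at 5 nM depended on the replicates: with the replicate as block it was 729 instead of 427 (357 lower and 372 higher), without S9CC47_R6 it was 906 (399 and 507), and without S9CC47_R5 or S9CC47_R8 it was 251 or 246. Higher calls thus outnumbered lower ones in the first 2 of these fits, and lower calls outnumbered higher ones as reported. At 1.6 nM no gene desert RE passed the threshold in edgeR (0.0383% of all REs did). DESeq2 called 4, and edgeR called 47 with the replicate as block, 26 without S9CC47_R6 and 10 without S9CC13_R6. An unadjusted p under 0.05 in edgeR was found in 384 of the 6,353 gene desert REs (728 with the replicate as block). Over all 151,457 REs it was found in 7,809. At 0.5 nM none passed in edgeR or DESeq2, as for all REs (0%). In edgeR 187 had an unadjusted p under 0.05 (422 with the replicate as block), against 5,219 of all REs.

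**Figure D4:**
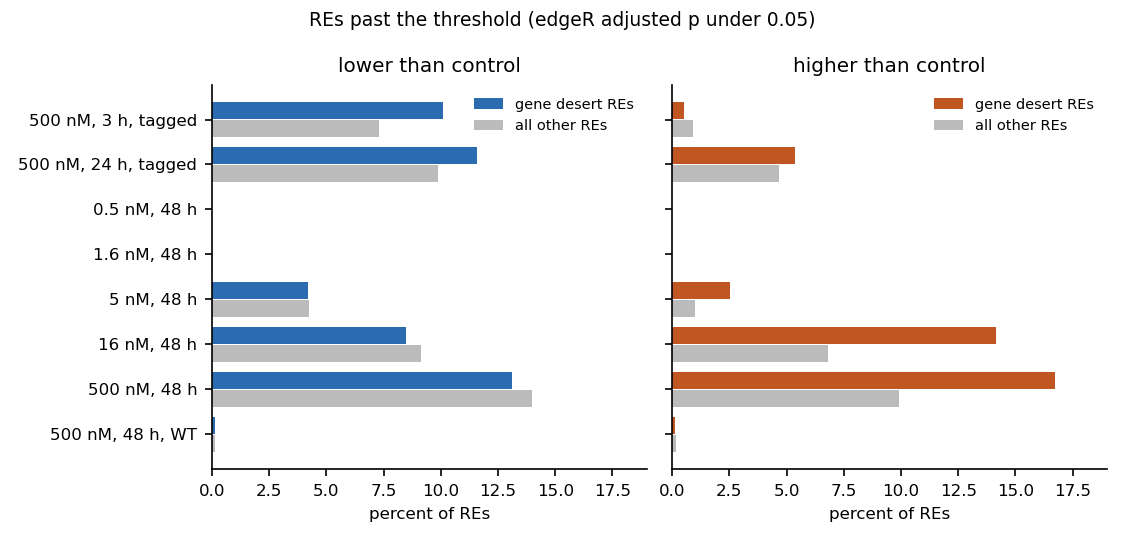
Percent of REs lower (left) or higher (right) than their control in each comparison, for gene desert REs (colored) and all other REs (gray). Gene desert REs exceed the others in the higher direction at 16 nM (14.2 against 6.82%) and 500 nM (16.7 against 9.90%), and in the lower direction at 3 h (10.1 against 7.31%).

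The gene desert REs that were lower at 500 nM had reached 16.7 ± 8.23% (SD, n = 7 replicates) of their median log2 change at 51.7% SOX9, 46.6 ± 11.8% at 25.8% SOX9 and 70.7 ± 17.0% at 8.14% SOX9. Those that were higher had reached 20.0 ± 12.5, 47.8 ± 10.9 and 78.9 ± 20.9%. A Hill curve was fitted for each called RE, and its ED50 is the SOX9 percentage at which accessibility lies midway between its levels at 0 and 500 nM. The median ED50 was 23.0 for the lower gene desert REs (21.5 for all lower REs) and 20.9 for the higher ones (16.9 for all higher REs). Leaving out a replicate moved these medians to between 21.97 and 25.3 and to between 19.05 and 23.6 in gene desert REs. For all lower and all higher REs the same ranges were 20.5 to 23.6 and 15.7 to 19.5. Fitted on the log2 CPM scale, the medians were 18.6 for the lower and 22.5 for the higher gene desert REs. Over all lower and all higher REs they were 16.9 and 18.2. The order of lower and higher REs thus depended on the scale. Of the lower gene desert REs, 67.5% had an ED50 under 30 and 12.6% had one over 40, against 70.7 and 11.0% of all lower REs.

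Among 250 rapid-down gene desert REs (also lower at 3 h of 500 nM) with a log2 fold change of -1 or below, ED50 ran from 11.0 to 64.0. The highest values belonged to an RE between ADGRL3 and TECRL (chr4:63387735-63388235; 64.0, 55.5 to 72.1 on leaving out a replicate) and to one between CTNND2 and DNAH5 (chr5:12986718-12987218; 56.8, 52.9 to 59.6). Both were weakly accessible, at means of 1.14 ± 0.341 and 1.11 ± 0.263 CPM at 0 nM and 0.584 ± 0.260 and 0.468 ± 0.181 CPM at 5 nM. The ADGRL3–TECRL RE was lower at 500 nM in 6 of 7 replicates. Its log2 fold change was -1.68 ± 0.29 at 16 nM and -1.12 ± 0.23 at 500 nM, while its curve was bounded by the level at 500 nM. The lowest belonged to an RE between NDST4 and TRAM1L1 (chr4:116516502-116517002; 11.0, 7.19 to 18.2) and to one between ADGRL4 and ADGRL2 in an intron of LINC01781 (chr1:80589242-80590213; 12.7, 11.3 to 13.7). The latter still held 5.09 ± 2.67 CPM at 5 nM against 6.18 ± 3.28 CPM at 0 nM (SD, n = 7).

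The 3 gene desert REs with the lowest p at 5 nM were those of AGA–TENM3 and SEL1L–FLRT2 above, with log2 fold changes of -1.96 ± 0.13 and -2.04 ± 0.18, and an RE between CRYBA4 and MN1, a transcriptional regulator gene (chr22:27217110-27217610). The last held 2.66 to 7.75 CPM at 0 nM (median 6.23), 1.25 to 2.01 CPM at 5 nM (median 1.55) and 0.339 to 0.869 CPM at 500 nM (median 0.565). Its groups at 0 and 5 nM did not overlap, and its ED50 was 41.7.

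The time course separated early from late changes. At 3 h of 500 nM, 641 gene desert REs were lower than vehicle (10.1%, against 7.43% of all REs) and 33 were higher (0.519%, against 0.912%). At 24 h, 735 were lower (11.6%, against 9.93%) and 341 were higher (5.37%, against 4.7%). Calls at 3 h were mostly losses, and the share lost was larger than in the whole table. It was no larger than in REs 250,000 to 500,000 bp from a coding start site, of which 11.3% were lower. From 35 to 40% GC 12.3% of gene desert REs and 10.5% of the other REs were lower at 3 h. From 40 to 45% GC it was 10.8% of both, and under 35% GC 6.63 and 8.25%. At matched accessibility of 2 to 5 CPM the shares were 9.96 and 7.92%. From 5 to 10 CPM they were 16.4 and 8.46%, and above 10 CPM 21.7 and 7.98%. Without differentiation batch as covariate, which leaves the difference between the 2 replicates in the error, 0 gene desert REs were called at 3 h, and 44 were lower and 0 higher at 24 h. The number lower at 3 h fell to 303 without replicate S9CC13_R4 and 477 without S9CC13_R5, and at 24 h to 371 and 513. The number higher at 24 h fell to 4 without S9CC13_R4 and 187 without S9CC13_R5, and was 129 in DESeq2. The number higher at 3 h was 2 or 3 without either replicate, 10 in DESeq2 and 76 with GC offsets.

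The comparisons at 48 h and in the time course used different samples, but differentiation batch R5 gave both 1 of the 7 tagged replicates at 48 h and 1 of the 2 in the time course. Of the 834 REs lower at 48 h, 472 (56.6%) were also lower at 3 h and 593 (71.1%) at 24 h, against 43.3 and 60.1% over all lower REs. Of the 641 lower at 3 h, 472 (73.6%) were lower at 48 h, against 81.2% over all REs lower at 3 h. Of the 1,062 higher at 48 h, 11 (1.04%) were higher at 3 h and 271 (25.5%) at 24 h, against 1.61 and 26.2%. Lower gene desert REs also lower at 3 h are called rapid-down and the other 362 delayed-down. Median ED50 was 27.9 in the rapid-down and 14.3 in the delayed-down REs, against 29.9 and 13.3 over all REs of these classes.

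By log2 fold change at 3 h, the lowest were the REs of SEL1L–FLRT2, ANKRD7–KCND2 and ZPLD1–ALCAM named above. The SEL1L–FLRT2 RE held 5.28 and 7.03 CPM in the 2 vehicle samples, 0.285 and 0.400 CPM at 3 h and 0.0737 and 0.202 CPM at 24 h (-4.23 ± 0.25 at 3 h, adjusted p = 1.25e-09). In WT cells it held 8.02 and 8.91 CPM with vehicle and 7.92 and 9.26 CPM at 3 h. The ANKRD7–KCND2 RE went from 24.7 and 38.3 to 2.58 and 2.62 CPM (-3.62 ± 0.15), and the ZPLD1–ALCAM RE from 8.81 and 9.59 to 0.805 and 0.844 CPM (-3.54 ± 0.19). In all 3 the tagged samples with vehicle lay far above those at 3 h. The highest at 3 h were weak REs between LRFN5 and FSCB (chr14:43087610-43088110), from 0.417 and 0.516 to 0.973 and 1.20 CPM (1.18 ± 0.35, adjusted p = 0.0405), and between CTNNA2 and SUCLG1 (chr2:83872963-83873463), from 0.247 and 0.775 to 0.856 and 1.35 CPM (1.15 ± 0.32, adjusted p = 0.0294). At 48 h the former was higher and the latter did not pass the threshold.

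The REs whose sequences are shown above were picked for losses at both 3 h and 48 h or for the highest gains at 48 h. These directions were therefore fixed by the choice. The VRK1–BCL11B RE, the most accessible of the 6 with facing cores, held 34.9 and 41.7 CPM with vehicle and 8.24 and 9.30 CPM at 3 h, and fell from a median of 28.9 CPM (24.3 to 33.9) to 5.59 CPM (4.73 to 7.72) at 48 h. The TFAP2B–PKHD1 RE, 531,187 bp from the neural crest regulator TFAP2B, went from 2.60 and 3.30 to 0.400 and 0.638 CPM at 3 h. In WT cells with vehicle it held 6.21 and 8.65 CPM, above both tagged vehicle samples. The AMY1C–PRMT6 and NXPH1–NDUFA4 REs had log2 fold changes of -2.28 and -2.18 at 3 h and -3.23 and -2.51 at 48 h. The MCTP2–NR2F2 RE, in an intron of LETR1, changed less at 48 h (-0.73 ± 0.13) than at 3 h (-1.62 ± 0.21), and the difference between the times was not tested. The C4orf33–PCDH10 and PABPC4L–PCDH18 REs had log2 fold changes of -0.03 and 0.14 at 3 h (adjusted p = 0.977 and 0.875) and of 0.88 and 1.18 at 24 h (adjusted p = 0.00916 and 0.0029).

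WT cells served as the control for dTAGV-1 itself. No gene desert RE passed the threshold in WT cells at 3 h or 24 h, nor did any of all REs (0%), in edgeR or DESeq2. In edgeR 189 and 236 gene desert REs had an unadjusted p under 0.05, against 3,656 and 4,642 of all 151,457 REs. The change in tagged cells differed from that in WT cells, by the interaction of genotype and treatment, toward lower accessibility in 425 gene desert REs at 3 h (6.69%, against 5.13% of all REs) and 485 at 24 h (7.63%, against 6.28%). Toward higher accessibility it differed in 4 at 3 h (0.063%, against 0.072%) and 55 at 24 h (0.866%, against 0.45%). The 55 became 34 in DESeq2, 112 with GC offsets and 0 without the batch term. Without S9CC13_R4 the totals fell from 429 to 228 at 3 h and from 540 to 302 at 24 h, and without WT_R4 to 349 at 24 h.

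At 48 h in WT cells 10 gene desert REs were lower (0.157%, against 0.145% of all REs) and 7 were higher (0.11%, against 0.158%). DESeq2 called none, and none remained without either replicate. Those with the lowest p lay between PCDH17 and DIAPH3 (chr13:59374650-59375150; 1.83 and 2.51 CPM at 0 nM, 0.903 and 1.32 CPM at 500 nM), between RNF144A and ID2 (chr2:8132735-8133235; 10.1 and 11.8 against 6.98 and 8.47 CPM) and between LMO3 and RERGL (chr12:17139885-17140385; 1.26 and 1.75 against 0.507 and 0.862 CPM). All 3 were lower in WT cells, and in tagged cells the last 2 were higher at 500 nM. Of the 17, 13 were also called in tagged cells at 48 h: 3 in the same direction and 10 in the opposite one, of which 6 were higher and 4 lower in WT cells. Over all REs called in both, 175 were higher in WT and lower in tagged cells, 48 the reverse, 67 lower in both and 24 higher in both.

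The 309 intervals were not alike. Of the 204 intervals with at least 10 gene desert REs, 119 held more higher than lower REs at 500 nM, 64 held more lower and 21 held equal numbers. Most intervals (191 of 309) held REs of both directions. AGA–TENM3, the interval with the most members (103), held 13 lower and 18 higher REs. PCDH7–ARAP2 held 7 and 18 of 87, OLFM4–PRR20A 3 and 18 of 70, and NUDT12–EFNA5, beside an ephrin gene, 12 and 6 of 64. CELF4–PIK3C3 held 5 and 10 of 74, CITED2–NMBR 8 and 12 of 66, SLITRK5–GPC5 5 and 12 of 65, and SEL1L–FLRT2 7 and 6 of 64.

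Shares in single intervals ranged widely. Between CRYBA4 and MN1, 11 of 27 REs (40.7%) were lower and 0 were higher, and between SPDYE21 and AUTS2, a neurodevelopmental gene, 13 of 34 were lower and 3 higher. Between B3GAT1 and the end of chromosome 11, 5 of 11 were lower and 0 higher, and between MYOM2 and CSMD1 7 of 17 were lower and 1 higher. Between SERPINB8 and the cadherin gene CDH7, 6 of 11 were higher and 0 lower, and between PDCD6IP and ARPP21 12 of 28 were higher and 1 lower. Between CD83 and JARID2 6 of 14 were higher and 1 lower, and between DCDC2C and SOX11 9 of 25 were higher and 5 lower. These intervals were picked for their shares, which are a description with no test.

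**Figure D5:**
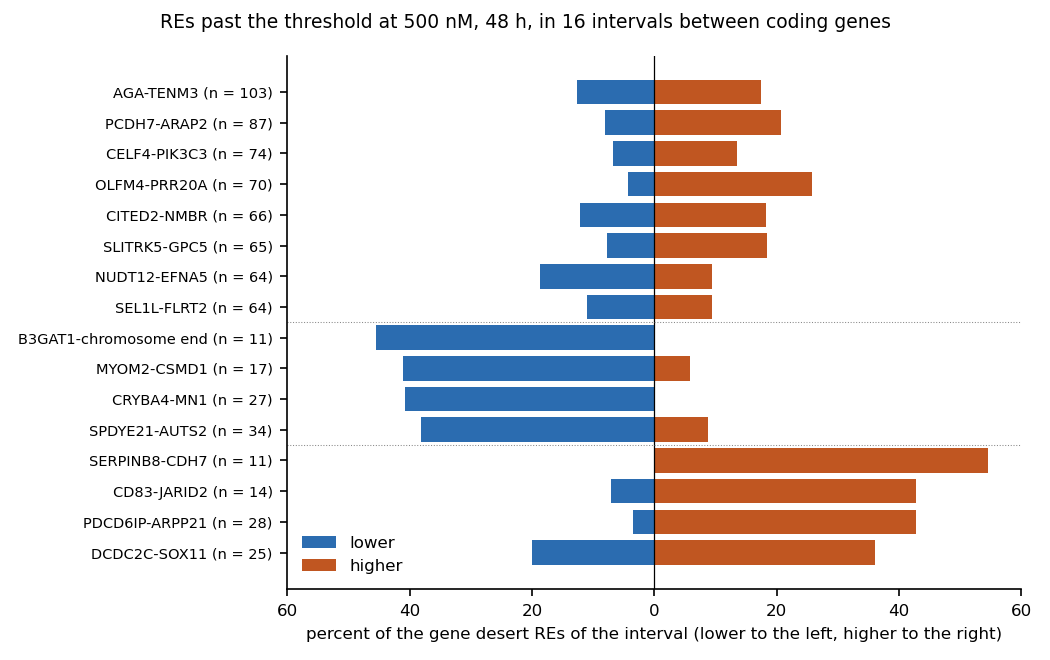
Percent of gene desert REs lower (blue, to the left) or higher (orange, to the right) at 500 nM in the 8 intervals with the most members (top), the 4 with the highest percent lower (middle) and the 4 with the highest percent higher (bottom), titled by flanking genes with the number of REs. The CRYBA4–MN1 bar reaches 40.7% to the left with nothing to the right, and the SERPINB8–CDH7 bar reaches 54.5% to the right.

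Neighboring REs tended to share their direction at short range. Of 233 pairs of neighboring gene desert REs under 10,000 bp apart that were both called at 500 nM, 188 (80.7%) had the same direction, against 59 of 104 (56.7%) at 50,000 to 200,000 bp. Over all autosomal REs these shares were 84.2 and 58.4%. By chromosome, the share of lower gene desert REs was highest on chromosome 22, where 15 of 40 were lower and 1 was higher. The share of higher ones was highest on chromosome 17, where 3 of 58 were lower and 17 higher. The CRYBA4–MN1 interval held 11 of these 15 lower REs, and the KCNJ2–SOX9 interval 10 of these 17 higher ones. Both chromosomes were picked for their shares, with no test.

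The intervals beside a list of 76 neural crest and craniofacial regulators were examined as a group. Of these genes 18 flanked an interval with gene desert REs, 411 in all. Of the 411, 57 (13.9%) were lower and 78 (18.98%) were higher at 500 nM, and 50 (12.2%) were lower and 2 higher at 3 h. Over all gene desert REs the shares were 13.1% lower and 16.7% higher at 500 nM and 10.1% lower at 3 h. Beside NR2F1, a nuclear receptor of the neural crest, 2 of 44 were lower and 10 higher. Beside its paralog NR2F2 10 of 52 were lower and 7 higher, beside ZEB2, a regulator of neural crest emigration, 9 of 59 and 12, and beside SOX11 8 of 33 and 9. Beside the homeobox gene IRX1 5 of 19 were lower and 0 higher, and beside TFAP2A 5 of 25 and 6.

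In the desert between KCNJ2 and SOX9, 32 REs met the rule, of which 2 were lower and 10 higher at 500 nM. The most accessible called one (chr17:71558856-71559703, 561,740 bp from SOX9) rose from a median of 17.4 CPM (15.1 to 21.3) to 26.3 CPM (24.8 to 31.7) without overlap (0.61 ± 0.08, adjusted p = 1.91e-06), whereas another (chr17:70987757-70988257) fell from 13.6 CPM (8.60 to 18.9) to 8.83 CPM (3.77 to 10.6; -0.65 ± 0.09) and was also lower at 3 h (-1.01 ± 0.13). REs at chr17:70865981-70866481, chr17:71118014-71118514 (in an intron of CASC17), chr17:71237769-71238269 and chr17:71511665-71512165 rose by log2 fold changes of 0.67, 0.94, 0.65 and 0.66, each in 7 of 7 replicates. The most accessible of all 32 had means of 43.2 and 41.8 CPM without and with 500 nM (adjusted p = 0.567).

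Sequence content was compared over REs of the regular, unmerged width, 5,641 of them in gene deserts, as counts of short words on both strands. A SOX core occurred in 56.8% of gene desert REs and 46.9% of all REs. It occurred in 74.1% of the 405 rapid-down, 59.0% of the 305 delayed-down and 55.1% of the 897 higher gene desert REs, and in 55.3% of those not called. A facing pair occurred in 8 of the 405 rapid-down REs (1.98%), in 0 of the delayed-down or higher ones and in 2 of the 4,034 not called (0.0496%), against 0.177% of all gene desert REs and 0.203% of all REs. In the whole table the rapid-down REs had a SOX core in 75.9% and a facing pair in 2.60%, so these shares were no higher in gene deserts. Counting REs of any width, 12 gene desert REs held a facing pair, of which 9 were lower at 48 h, 11 were lower at 3 h and 0 were higher at 48 h. Over all REs 255 of 328 with a facing pair were lower at 48 h.

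Other words also differed in frequency between the classes. The homeodomain core TAATTA occurred in 27.4% of higher gene desert REs, 20.2% of rapid-down and 15.1% of delayed-down ones and 20.5% of those not called (13.6% of all REs). The like classes of the whole table had the same order, with 21.7, 15.0 and 9.47%. TGACTCA, bound by AP-1 (FOS and JUN dimers), occurred in 14.9% of the higher, 8.89% of the rapid-down and 8.58% of the uncalled ones (9.41% of all REs). It was more frequent among all higher REs, at 19.1%. CAGATG, an E-box bound by basic helix-loop-helix factors such as TWIST1, occurred in 55.7% of the delayed-down, 46.9% of the rapid-down and 43.4% of the higher ones (42.1% of all REs), against 54.6, 47.6 and 42.6% in the like classes of the whole table. GCCNNNGGC, bound by TFAP2 factors, occurred in 13.4% of gene desert REs and 23.1% of all REs, and CNAGGGGGC, the core of the CTCF site, in 1.52 and 3.94%. AGGTCA, a nuclear receptor half-site, occurred in 33.2 and 33.9%. Mean GC content was 41.4% in the rapid-down, 44.6% in the delayed-down and 40.6% in the higher gene desert REs, and AT-rich words are more frequent where GC is low. The part of base composition in these shares was not tested, and a match of letters is not evidence of binding.

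The 3 most accessible gene desert REs were all lower at 500 nM, by smaller log2 fold changes than those above. The RE between TLE4 and TLE1, genes of Groucho-type corepressors (chr9:80796589-80798702), held 104 to 126 CPM at 0 nM (median 115) and 80.8 to 112 CPM at 500 nM (median 96.1), with overlapping groups (-0.26 ± 0.06, adjusted p = 0.000924). That between DAOA and the ephrin gene EFNB2 (chr13:105997760-105998501) fell from a median of 100.3 CPM (94.6 to 122) to 65.3 CPM (58.3 to 80.2) without overlap (-0.64 ± 0.06) and was already lower at 3 h (-0.39 ± 0.06, adjusted p = 9.2e-05). The third, between TFAP2B and PKHD1 (chr6:51513804-51515443), held 66.2 to 114 CPM at 0 nM and 53.6 to 96.2 CPM at 500 nM with overlapping groups (-0.23 ± 0.06, adjusted p = 0.00349). The 3 REs farthest from a coding start site lay on the short arm of chromosome 21 before TPTE (chr21:5128240-5128740, chr21:5154600-5155100 and chr21:6368744-6369244), the first 5,393,063 bp away. None passed the threshold at 500 nM (log2 fold changes of 0.00, 0.20 and 0.09). The share of all counts in gene desert REs was 1.93 ± 0.22% at 0 nM and 1.99 ± 0.19% at 500 nM (SD, n = 7), a log2 ratio of 0.047 ± 0.067 over replicates that did not exceed its spread.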

How the data were processed

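The values deposited by the authors are raw counts per RE and sample, with no normalization. Per the methods of the study and the processing notes, the authors trimmed reads with skewer, aligned them to hg38 with Bowtie2 2.4.1, removed duplicate, mitochondrial and poorly mapped reads with SAMtools 1.10, merged the summits found by MACS2 2.2.7.1 into one RE set, in which every sample was counted. How reads were counted is not given in the sources used here. Low-complexity and repeated sequence in gene deserts can lose reads at the mapping-quality step, and REs seen in too few differentiations were not counted.

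Each RE was annotated by its midpoint against GENCODE release 44. Counts were compared with edgeR 4.0.16 (quasi-likelihood test, TMM scaling, trended dispersion), on the 151,457 REs together and without a filter, with Benjamini-Hochberg adjustment and a threshold of 0.05. Differentiation batch was the covariate at 48 h and in each time course, and genotype by batch in the interaction fit. SE was derived from the F statistic. On simulated counts for 500 nM against 0 nM over 151,457 REs, 99% of 200 REs changed 2-fold were recovered, with 4.81% false calls. The changed REs were drawn only from REs above a limit of mean counts. Every RE had the same dispersion, and there was no batch effect. Recovery among weakly accessible gene desert REs was therefore not measured. CPM were TMM-scaled. ED50 came from a 2-parameter Hill curve on batch-regressed CPM, with samples over 3 SD removed. Alternatives were DESeq2 1.42.0, RLE scaling, a low-count filter, a replicate block, no batch term, leaving out each replicate, other forms of the distance rule, and offsets over 50 bins of GC content. The last was chosen after seeing the data. The filter removed no RE. Totals ran from 22.9 to 81.04 M counts, and their intervals cover counting error only.

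Same-named replicates come from the same differentiation. Over gene desert REs their deviations from the group means at 0 and 500 nM correlated with r from 0.459 to 0.773 (7 pairs, mean 0.575). Between differently named replicates r ran from -0.542 to 0.552 (42 pairs, mean -0.0952), so the ranges overlapped. Same-named samples were closer in the mean, and the names were taken to pair them. Every pair of samples differed by more than sampling noise, with a reduced chi-square of at least 1.76 in 1,653 pairs. In replicate S9CC13_R14 the titles 0 and 0.5 nM conflict with the concentration given in another label, and the titles were used. The columns of 1 tagged time-course differentiation, R5, carry clone S9CC47 while the titles name S9CC13. They were matched by differentiation, treatment and time.

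Named REs were chosen by rules. The 6 lowest and 6 highest log2 fold changes at 500 nM were taken among REs changed the same way in 7 replicates. These REs also needed at least 1 CPM. Others had the lowest p at 5 nM or in WT cells, or were extremes at 3 h, of ED50, of level or of distance. Called REs beside SOX9 were added. REs with facing cores were taken among those lower at 3 h and 48 h, by the lowest log2 fold change at 3 h. Of the 6 highest, 1 RE is not reported here. The rule, the lists and the tests were chosen with earlier results of these data known.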

Additional observations from a re-analysis of the deposited data

Results flagged for a closer look

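In 84 groups of 7 samples (39 named REs at 0 and 500 nM, and the share of counts at 6 concentrations), 7 held a sample far from the others, where chance alone gives about 1 in 20. Replicate S9CC47_R5 at 500 nM was such a sample in 3 REs, with 0.978 CPM at ZPLD1–ALCAM, 0.580 CPM at NXPH1–NDUFA4 and 2.25 CPM at chr21:5128240-5128740. Replicate S9CC13_R10 at 500 nM was the far sample in 2 REs, with 3.77 CPM at chr17:70987757-70988257 and 9.74 CPM at chr21:5154600-5155100, and its share of counts in gene desert REs (1.61%) was the lowest of its group. Replicate S9CC13_R14 at 0 nM stood apart with 3.59 CPM at PABPC4L–PCDH18.

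The change on 500 nM dTAGV-1 differed between tagged and WT cells, by the interaction term, toward lower accessibility in 425 gene desert REs at 3 h and 485 at 24 h, and toward higher accessibility in 4 and 55. The 55 became 34 in DESeq2, 112 with GC offsets and 0 without the batch term.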

How the results depend on the processing

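Of 182 alternative values of the counts, shares, median ED50 values and the share of reads, 143 stayed within 1.5 times the reported count or within the stated spread. Without a batch term (no replicate block) the members lower and higher at 500 nM were 419 and 424, those called at 16 and 5 nM 414 and 82, those lower and higher 0 and 0 at 3 h and 44 and 0 at 24 h, those called in WT cells at 48 h 0, and those with an interaction 31 at 3 h and 81 at 24 h. With the replicate block in place of batch, 729 were called at 5 nM (357 lower, 372 higher) and 47 at 1.6 nM, and 1,391 were higher at 16 nM. The pairing moved no other count of calls at 48 h in tagged cells by over 1.5 times. DESeq2 called 4 at 1.6 nM, 10 higher at 3 h, 129 higher at 24 h and 0 in WT cells at 48 h. With GC offsets 76 were higher at 3 h and 32 were called in WT cells at 48 h.

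Leaving out a replicate gave 246 to 906 calls at 5 nM, 0 to 26 at 1.6 nM, 303 to 477 lower and 2 to 3 higher at 3 h, 371 to 513 lower and 4 to 187 higher at 24 h, 0 in WT cells at 48 h, and interactions of 228 to 368 at 3 h and 302 to 437 at 24 h. In the 2-sample groups the remaining sample was assumed to vary like the other groups. At limits of 250,000 and 1,000,000 bp, 15.0 and 11.2% were lower at 500 nM, and at 250,000 bp 15.7% were higher at 500 nM and 10.9% lower at 3 h. Of 390 alternative log2 fold changes of named REs, 372 kept their direction and side of the threshold. Leaving out a replicate gave -0.026 (without S9CC47_R8) to 0.288 at CTNNA2–SUCLG1 and -0.093 (without S9CC47_R8) to 0.069 at chr21:5128240-5128740. The sign of the latter also turned without the batch term (-0.021) and without S9CC47_R6 (-0.017). None of these values passed the threshold. The cause of these changes was not tested. Depth was 68 counts for the median gene desert RE in the median sample. Recovery was simulated only for 2-fold changes in REs above a limit of mean counts.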
